A study of Mus musculus with 4 samples.

Results

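Leptomeningeal fibroblast spots were the spots of mouse olfactory bulb sections richest in 6 fibroblast transcripts. They were chosen on measured values: among spots with at least 500 unique molecular identifiers (UMIs), the summed UMIs of Dcn, Col1a2, Ogn, Fmod, Slc13a4 and Mgp were divided by the UMIs of the spot, and the top 5% of spots in each library were taken. This gave 231 of 4616 kept spots, with 83 in library 1, 36 in library 2, 65 in library 3 and 47 in library 4. The data came from Visium, an assay in which each barcoded spot collects polyadenylated RNA from a small patch of a tissue section that can hold several cells. The labels give 2 capture areas for each of 2 mice: a control, and a mutant in which a transgenic soluble VEGFR1, a decoy receptor for vascular endothelial growth factor (VEGF), was made in the brain under tetracycline-regulated Camk2a-tTA and VEGF was blocked at E13.5. The control mouse gave 2 serial sections on an area and 1 slice on the other, and the mutant mouse gave 2 serial sections on each. The protocol states an age of 5 months at sacrifice, and the sources used here do not say whether the control carried part of the transgene system. The driver, Camk2a-tTA, is active in forebrain neurons, and each condition is a single animal. The labels print the same treatment text for control and mutant samples. The numbers 1 to 4 that end the barcodes match none of the labels, so the libraries below have no condition, are not replicates, and no control is compared with a mutant.

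The leptomeninges are the pia, which lies on the brain surface, and the arachnoid above it. Their fibroblasts lay down collagens and small leucine-rich proteoglycans, carry transporters that clear organic ions and amino acids from the cerebrospinal fluid, secrete prostaglandin D synthase into that fluid, and in the mouse embryo release retinoic acid, bone morphogenetic proteins and chemokines to the brain beneath. At the olfactory bulb these membranes touch the olfactory nerve layer, where ensheathing glia wrap the incoming sensory axons, and they are pierced by vessels and by nerve bundles that come through the cribriform plate from the nasal mucosa.

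The chosen spots were shallower than the rest of their library, with a median of 4994, 6026, 7729 and 6556 UMIs against 8122, 7473, 9209 and 10039.5 in libraries 1 to 4. They held 3.46, 4.18, 4.19 and 3.54% of the UMIs of kept spots and 48.5, 50.6, 35.8 and 28.7% of the UMIs of the 6 genes. Over all kept spots the score and the depth had Spearman's rho of 0.09, 0.23, 0.02 and -0.18, as a description. Of 2768 distinct barcode sequences, 1408 occurred in 2 or more libraries, because capture areas reuse the same barcodes, and among the chosen spots 8 of 223 did. No library could be checked against a genotype.

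The threshold lay on a slope, with no gap between the spots inside and outside it. The last spot inside had 10.2459, 13.6, 36.7 and 28.8 rule UMIs per 10000 UMIs in libraries 1 to 4 and the first spot outside had 10.2399, 13.2, 36.0 and 27.7. The median chosen spot had 19.5, 24.7, 58 and 37.1 and the highest 61.7, 63, 236 and 87.3, while the median of the other spots was 0, 0, 1.96 and 1.72. The plot of score by rank shows that the top 5% of library 3 began at a score that only the upper part of the chosen spots of libraries 1 and 2 reached. Taking 1 score threshold for all libraries would have chosen 28, 18, 124 and 61 spots.

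**Figure D1:**
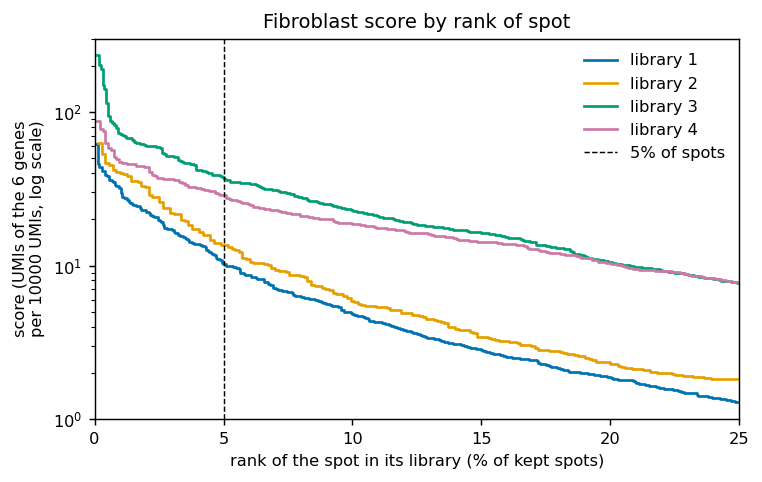
Score of each spot (UMIs of the 6 rule genes per 10000 UMIs, log axis) against its rank in its library (percent of kept spots), 1 line per library, with the dashed line at the 5% taken. The lines fall without a step at the dashed line, and those of libraries 3 and 4 stay above those of libraries 1 and 2.

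The 6 rule genes are described first, as the values that chose the spots. Levels are counts per 1000000 UMIs (CPM) over the summed UMIs of a group of spots. Dcn encodes decorin, a small proteoglycan that binds collagen fibrils, and stood at 835, 920.4, 924 and 1009 CPM in the chosen spots of libraries 1 to 4 and at 24.1, 28.2, 89.6 and 96.2 CPM in the other spots. With the top 5% per library its highest library had 1.21 times the lowest, but with 1 score threshold for all libraries the log2 ratio of highest to lowest was 1.06, past 2-fold. Ogn, which encodes osteoglycin, had 207, 266, 394 and 294 CPM and Fmod, which encodes fibromodulin, 194, 293, 314 and 234 CPM in the chosen spots. Col1a2, a chain of fibrillar collagen I, had 228, 270.2, 806 and 688 CPM, and was highest in library 3 and next in library 4. Slc13a4, a sodium and sulfate cotransporter of the meninges, had 359, 398, 291 and 172 CPM and was lowest in library 4. Mgp, matrix Gla protein, an inhibitor of calcification also made by vessel walls and cartilage, differed most among the 6, with 404, 678, 3328 and 1742 CPM. Its highest library, 3, had 8.23 (7.07 to 9.62) times the level of its lowest, library 1 (interval for counting error), and in the other spots of the same libraries Mgp had 30.9, 45, 196 and 129 CPM. Mgp had the most UMIs of the 6 genes in 15 of 83, 8 of 36, 57 of 65 and 22 of 47 chosen spots.

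Most chosen spots held several of the 6 genes at once. At least 4 of the 6 had a UMI in 65.1, 77.8, 80 and 83.0% of the chosen spots of libraries 1 to 4, against 1.08, 2.06, 16.7 and 15.2% of the other spots. All 6 were seen in 15, 14, 35 and 15 chosen spots, and 4 spots of library 1 and 1 of library 3 were chosen on only 1 gene. The other spots of libraries 3 and 4 were thus more often positive for several of these genes than those of libraries 1 and 2. The share of spots with a Dcn UMI was 90.4, 94.4, 92.3 and 87.2% among chosen and 12.3, 13.4, 30.8 and 34% among other spots. The 25% of spots richest in granule cell genes, which should lack fibroblasts, served as a reference for free RNA, with any chosen spots left out. A Dcn UMI was found in 3.86, 2.23, 8.64 and 8.51% of them. Their median depths, before chosen spots were left out, were 2914, 3168, 5338 and 7438 UMIs. Spots of at least 2000 UMIs were also thinned to 2000 UMIs, and shallower spots were left out. In library 1 this kept 79 of 83 chosen and 262 of 414 granule cell spots. The shares with a Dcn UMI were then 73.4, 80.6, 71.9 and 67.4% of chosen and 2.29, 0.725, 2.27 and 3.88% of granule cell spots.

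Promoter windows, 250 bases before to 50 after a transcript start, were at hand for 4 of the rule genes and are shown because these genes set the score together. They come from RefSeq on build GRCm38.p6 and are written 5′ to 3′ on the strand of the gene, with capitals marking exact matches on either strand to any of 4 motifs. The TATA box was searched as TATAAA. The CCAAT box was searched by the letters of its name. The GC box was searched as GGGCGG. The motif of forkhead factors was searched as GTAAACA.
Col1a2 (chr6:4505368-4505667, plus strand): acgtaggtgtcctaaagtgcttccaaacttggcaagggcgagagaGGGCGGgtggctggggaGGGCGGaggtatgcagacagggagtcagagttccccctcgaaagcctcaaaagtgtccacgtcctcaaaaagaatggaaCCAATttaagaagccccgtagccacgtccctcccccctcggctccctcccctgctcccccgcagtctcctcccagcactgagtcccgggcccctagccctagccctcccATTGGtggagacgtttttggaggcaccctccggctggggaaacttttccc
Ogn (chr13:49607765-49608064, plus strand): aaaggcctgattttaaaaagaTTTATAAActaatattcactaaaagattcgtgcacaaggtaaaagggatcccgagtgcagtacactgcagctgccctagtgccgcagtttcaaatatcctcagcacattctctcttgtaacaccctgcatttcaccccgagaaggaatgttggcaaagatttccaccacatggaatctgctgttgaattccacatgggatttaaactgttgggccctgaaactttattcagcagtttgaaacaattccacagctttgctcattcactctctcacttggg
Fmod (chr1:134037004-134037303, plus strand): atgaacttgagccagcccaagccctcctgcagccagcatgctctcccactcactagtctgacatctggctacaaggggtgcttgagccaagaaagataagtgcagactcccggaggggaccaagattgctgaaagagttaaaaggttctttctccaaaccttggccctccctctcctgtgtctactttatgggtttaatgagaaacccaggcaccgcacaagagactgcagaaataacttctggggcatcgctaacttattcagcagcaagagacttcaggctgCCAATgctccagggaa
Slc13a4 (chr6:35308077-35308376, minus strand): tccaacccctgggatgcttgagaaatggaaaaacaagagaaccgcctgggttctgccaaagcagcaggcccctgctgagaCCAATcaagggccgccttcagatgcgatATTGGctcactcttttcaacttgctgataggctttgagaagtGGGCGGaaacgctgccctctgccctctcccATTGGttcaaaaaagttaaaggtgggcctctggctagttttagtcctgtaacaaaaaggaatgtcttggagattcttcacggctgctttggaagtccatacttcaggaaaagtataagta
The window of Col1a2 held 2 CCAAT and 2 GC boxes, that of Slc13a4 3 CCAAT boxes and 1 GC box, and that of Fmod 1 CCAAT box. The window of Ogn held 2 TATA matches on opposite strands that overlap each other. None of the 4 held the forkhead letters. Of all 32851 promoter windows, 13.6% held the TATA box, 37.4% the CCAAT box, 35.7% the GC box and 3.65% the forkhead motif. Only 454 of the genes at least 2-fold higher in the chosen spots of every library had a window, some more than 1. Among their 598 windows the shares were 11.7, 35.8, 54.3 and 2.68%. Among the windows of all tested genes they were 7.03, 37.3, 62.9 and 2.46%. A match describes letters and is no evidence of binding.

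Transporters of the meningeal barrier, none of them in the rule, were concentrated in the chosen spots of all 4 libraries. A gene was called higher where its CPM in chosen spots was at least 2 times that in the other spots of the same library in each of the 4 libraries, and 4.94% of 11829 genes tested met this (584 genes), while 2.38% were at least 2-fold lower in each (281 genes). Genes were tested if they had at least 200 UMIs over all kept spots and 20 in each library, so a gene seen mainly in the chosen spots could pass through them. The contrast is the one used to choose the spots and transcripts of the same cells travel together, so these counts describe the spots and carry no p-value. In single libraries 11.3, 12.5, 10.9 and 11.2% of genes were at least 2-fold higher. All 6 of the 8 transporter genes with enough UMIs were called higher, and the summed transporters stood at 1487, 1836, 1877 and 1243 CPM in chosen and 85.7, 110.5, 192 and 174 CPM in other spots, a ratio of 17.4, 16.6, 9.78 and 7.13. The ratio was least in library 4, at 7.13-fold (6.39 to 7.94), where the interval is 95% and covers counting error only.

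Slc6a13, a GABA and taurine transporter, had 383, 504, 373 and 288 CPM in the chosen and 14.4, 19.6, 37.6 and 37.6 CPM in the other spots. Slc6a20a, which carries proline and other imino acids, had 291, 353, 516 and 279 against 12.6, 19.8, 43.6 and 39.6 CPM. Both were highest relative to the rest in libraries 1 and 2, where the other spots held least of them. Slc22a6 and Slc22a8 encode the organic anion transporters OAT1 and OAT3. Slc22a6 had 154, 165, 175 and 145 CPM in chosen spots, nearly level across libraries, and 5.06, 9.39, 20.1 and 14.6 CPM elsewhere. Slc22a8 had 207, 270.2, 249.6 and 145 against 16.8, 22.2, 28.5 and 21.2 CPM. Slc6a12, a betaine and GABA transporter, had 73.9, 124, 41.9 and 26.7 CPM from only 34, 27, 22 and 9 UMIs, and was highest in library 2. Slc7a11, the cystine and glutamate exchanger, had log2 ratios of 3.31, 3.51, 2.93 and 2.29 (log2 ratios here and below carry a prior count of 0.5). The 2 transporters with too few UMIs to test were Slc22a2, an organic cation transporter with 20, 3, 36 and 10 chosen UMIs, and Slc47a1, an export pump for organic cations, with 11, 5, 48 and 26. A UMI of Slc6a13 was found in 66.3, 88.9, 67.7 and 70.2% of chosen spots and 0.725, 2.79, 7.72 and 5.96% of granule cell spots, and after thinning in 50.6, 47.2, 43.9 and 54.3% and 0, 2.17, 1.62 and 0.431%.

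The wider list of meningeal fibroblast genes pointed the same way, with 10 of 11 tested members called higher. Ptgds encodes prostaglandin D synthase, the lipocalin of cerebrospinal fluid, and was 45479.7, 50633, 61041 and 36278 CPM in the chosen and 1561, 2269, 5286 and 4453 CPM in the other spots of libraries 1 to 4. Its ratio was least in library 4, at 8.15-fold (7.98 to 8.31). Over single chosen spots of libraries 1 to 4, Ptgds had a median of 331, 459.5, 407 and 283 and a highest value of 1258, 1178, 1828 and 1653 UMIs per 10000, against medians of 6.74, 6.98, 16.1 and 15.9 in other spots, so the medians were far apart. Ptgds UMIs were also found in 74.4, 71.5, 94.1 and 96.2% of granule cell spots, so its presence in a spot marks no cell. Igf2, insulin-like growth factor 2, had 352, 343, 699 and 487 against 21, 32.4, 84.7 and 75.9 CPM. Thbd, the anticoagulant receptor thrombomodulin, had 174, 192, 432 and 240.3 against 8.56, 11.2, 31.1 and 22.8 CPM. Lum (lumican), Pdgfra (a receptor of platelet-derived growth factor on fibroblasts), Cyp1b1, Nupr1, Islr, Serpinf1 and Gpc3 were the other called members. Igfbp2, a carrier of insulin-like growth factors, was the tested member not called, with log2 ratios of 0.85, 0.96, 1.65 and 1.38, against medians over all tested genes of -0.12, -0.12, -0.16 and -0.11. Asgr1 was not tested, with 16, 13, 32 and 9 chosen UMIs. By these genes outside the rule the chosen spots as a group bore the label of meningeal fibroblasts in all 4 libraries. Part of library 3, described further on, was an exception, and part of library 4 held less Ptgds and Slc6a13. The genes were listed with earlier results of these data known. Dural genes, given below, were higher in the chosen spots too, so these genes do not separate leptomeninges from dura. Among the chosen spots the score and the share of transporter UMIs had Spearman's rho of 0.49, 0.64, -0.17 and 0.02, as a description. Whether more fibroblasts under a spot or more RNA per fibroblast set a level cannot be told apart.

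**Figure D2:**
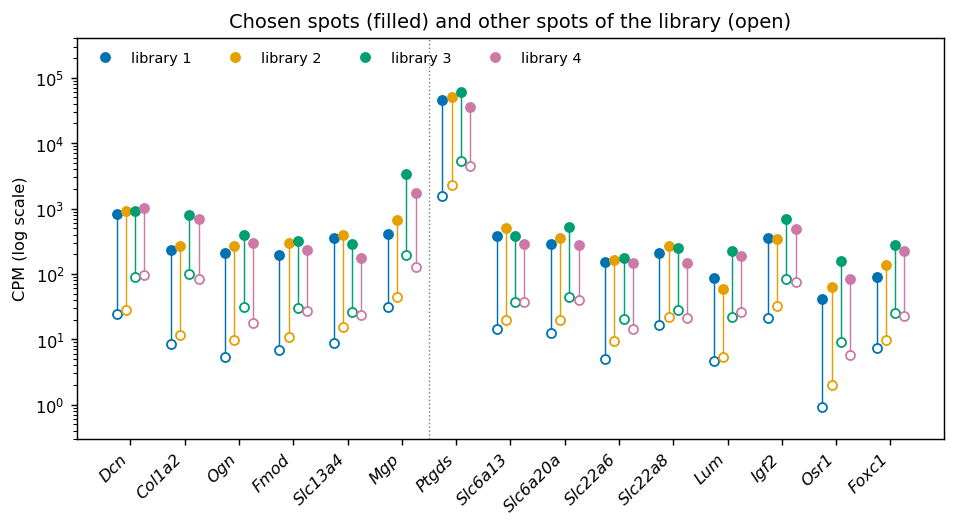
CPM (log axis) of the 6 rule genes, left of the dotted line, and of 9 other fibroblast genes in the chosen spots (filled) and the other spots (open) of each library. Every filled point lies above its open point, and the open points of libraries 3 and 4 lie above those of libraries 1 and 2 for each gene shown except Slc22a8, which in the other spots of library 4 was below library 2.

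Matrix genes were called in each of the groups examined. All 3 tested small leucine-rich proteoglycans outside the rule were called: Bgn (biglycan) had 235, 266, 482 and 379.8 against 25.5, 27.8, 76.4 and 61 CPM, Lum 87, 59.5, 225 and 189.9 against 4.67, 5.39, 22.2 and 26.1 CPM, and Prelp log2 ratios of 3.33, 3.12, 2.77 and 2.20. Omd, which had 12, 15, 49 and 19 UMIs in the chosen spots, was not tested, nor were Aspn and Podn, and Kera had no UMI in any library. Among 13 collagens of fibrils and networks, 5 of 7 tested were called, with Col1a1, the partner chain of Col1a2, at 95.7, 119, 442 and 481 CPM and Col12a1, which decorates collagen I fibrils, at 97.8, 147, 307 and 303 CPM. Col6a2, a chain of the beaded filament collagen VI, had log2 ratios of 3.36, 2.70, 3.36 and 3.34. Col5a1 (log2 -0.07, 2.15, 1.63 and 1.56) and Col6a1 (0.31, 0.71, 1.85 and 1.14) were not called. Chosen spots of libraries 3 and 4 held more collagen I mRNA than those of libraries 1 and 2, and so did the other spots, where Col1a1 had 6.93, 6.99, 76.5 and 68.8 CPM.

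Basement membrane genes followed, with 11 of 14 tested members called and a summed ratio of 3.39 to 4.98. Lamc1, the laminin gamma chain shared by most laminins, had 97.8, 105, 99.1 and 107 CPM in chosen and 16, 18.2, 35.3 and 39.3 CPM in other spots. Lamb2 had 152, 142, 253 and 169 CPM, and Nid1, which links laminin to collagen IV, had log2 ratios of 3.02, 3.38, 2.25 and 2.94. Lama1, the laminin chain of the pial membrane, had log2 ratios of 3.10, 3.25, 1.76 and 2.11 but from only 7, 8, 8 and 10 UMIs. Col4a2, Col15a1 and Lama5 were tested and not called, Col4a2 with log2 ratios of 0.63, 0.29, 1.10 and 1.04. Of the elastic fibre genes and matrix glycoproteins 8 of 10 tested were called. Fbln1 (fibulin-1) had 163, 183, 421 and 225 against 6.77, 11.2, 37.8 and 30 CPM, Efemp1 (fibulin-3) 280.5, 275, 358 and 223 against 17.4, 23.6, 41.6 and 37.7 CPM, and Fn1 (fibronectin) 250.1, 329.7, 1191 and 484 against 46.7, 62.5, 195 and 139 CPM, where library 3 stood above the other 3. Vtn, vitronectin, was higher in the chosen spots of libraries 1 and 2, with 518, 632, 377 and 317 CPM. Eln, the elastin gene, had only 3, 2, 21 and 7 UMIs in chosen spots and was not called, and neither was Sparc (osteonectin), with 474, 513, 955 and 985 against 258, 265, 479 and 408 CPM.

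Enzymes that process collagen were split. Called were 4 of 9 tested: Serpinh1, the collagen chaperone HSP47, with 161, 133, 362 and 303 CPM, Pcolce, which enhances procollagen cleavage, with 176, 128, 236 and 234 CPM, Aebp1, with 387, 380.1, 583 and 332 CPM, and Loxl1, a crosslinking oxidase, with log2 ratios of 1.51, 1.29, 1.66 and 1.39. The prolyl and lysyl hydroxylases were not called, with log2 ratios of 0.66, -0.39, 0.22 and 0.20 for P4ha1 and 0.84, 0.98, 1.60 and 1.82 for Plod1. Bmp1, the procollagen C-proteinase, was close to the rest of the tissue at -0.32 to 0.13. Among proteases and inhibitors 3 of 6 tested were called, namely Timp3, which inhibits metalloproteinases, with 411, 481, 667 and 534 CPM, Serping1, the C1 inhibitor, with 159, 215, 488 and 368 CPM, and Adamts1. Timp2 was not called, with log2 ratios of -0.35, -0.10, 0.67 and 0.46. The metalloproteinase genes did not reach the UMI minimum: Mmp2 had 4, 4, 43 and 15 and Mmp14 0, 1, 4 and 3 UMIs in the chosen spots.

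The retinoic acid pathway had 5 of 7 tested genes called. Aldh1a2, which makes retinoic acid in arachnoid cells, had 319.6, 302, 202 and 139 against 10.5, 15.6, 20.5 and 18.6 CPM, with the lowest chosen level in library 4. Crabp2, a retinoic acid carrier, had 69.6, 87, 152 and 59.3 against 5.53, 8.99, 11.6 and 11.3 CPM. Stra6, a retinol uptake receptor, had log2 ratios of 3.18, 2.93, 2.51 and 2.31 from 11, 5, 27 and 15 UMIs, and Aldh1a1 had 1.98, 1.48, 1.68 and 2.14. Rdh10, which makes retinaldehyde, was not called, with 28.3, 27.5, 15.2 and 23.7 against 14.1, 12, 13.7 and 13.2 CPM, and neither was Crabp1, with log2 ratios of 3.39, 2.44, 0.87 and 1.10. Cyp26b1, which breaks down retinoic acid, was not tested for want of UMIs in libraries 1 and 2, with 1, 1, 61 and 10 chosen UMIs. Most of these UMIs lay in library 3.

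Of 17 meningeal transcription factors 6 could be tested, and Foxc1, Osr1, Zic4 and Foxp1 were called. Foxc1, a forkhead factor needed for the meninges to form in the mouse, had 89.2, 137, 280.1 and 223 CPM in chosen and 7.32, 9.59, 25.5 and 22.7 CPM in other spots. Osr1, a zinc finger factor of mesenchyme, had 41.3, 64.1, 156 and 83.1 against 0.934, 2.0, 9.08 and 5.65 CPM. Its log2 ratio in its least changed library, 4, was 3.89. No other ranked gene had a higher least ratio, with mitochondrial, ribosomal protein and unnamed gene models left out of the ranking. Only 12 and 10 of the other spots of libraries 1 and 2 held a UMI of Osr1. It met the minimum of 20 UMIs in those libraries through the chosen spots. A UMI of Osr1 was seen in 18.1, 38.9, 52.3 and 40.4% of chosen and 0.725, 0.559, 1.54 and 1.28% of granule cell spots. Foxc2, Foxd1, Six2 and Twist1 did not reach the UMI minimum, with 15, 9, 85 and 31 UMIs for Foxc2 and 13, 7, 75 and 40 for Foxd1 in the chosen spots. Zic1, a zinc finger factor, was not called, with log2 ratios of 0.38, 0.48, 0.99 and 1.13.

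Genes assigned to separate meningeal layers were all represented. In the arachnoid list all 4 tested members were called, with Wnt6 at 76.1, 68.7, 118 and 74.2 CPM and Cldn11, a tight junction claudin also made by oligodendrocytes, at 117, 165, 286 and 237 CPM, next to Aldh1a2 and Crabp2. In the pial list 3 of 4 tested were called, with S100a6 at 233, 201, 543 and 516 CPM and Cxcl12, a chemokine for migrating cells, at 200, 192, 251 and 279 CPM. In the dural list 5 of 6 tested were called, with Fxyd5 at 84.8, 82.4, 461 and 279 CPM, Ccn3 at 80.5, 96.2, 467 and 199 CPM and Smoc2 at 52.2, 50.4, 124 and 71.2 CPM. The summed ratios were 10.1, 9.31, 5.98 and 4.45 for the arachnoid list, 6.1, 5.82, 2.97 and 3.22 for the pial list and 7.05, 6.25, 5.55 and 4.01 for the dural list in libraries 1 to 4. The dural genes Ccn3 and Fxyd5 were highest in library 3, and their highest libraries had 5.8 and 5.59 times the lowest. Spots of this size do not resolve the layers.

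**Figure D3:**
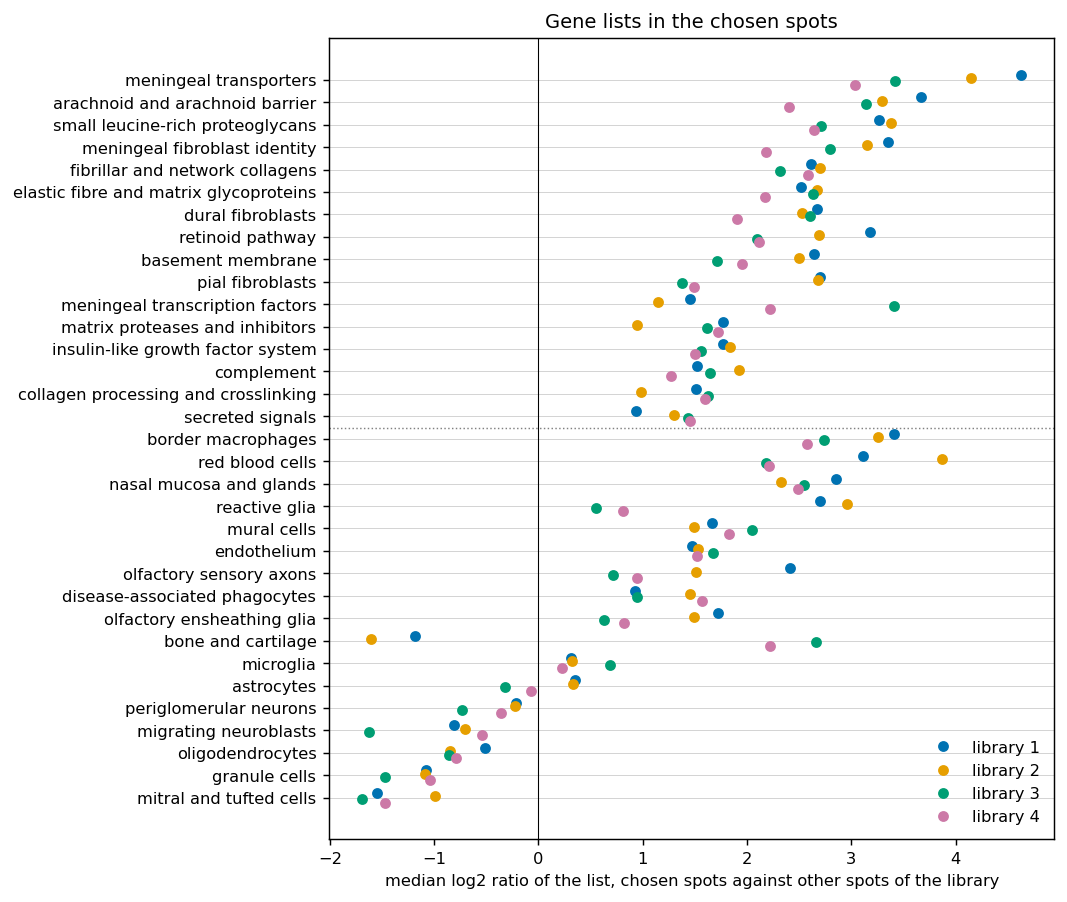
Median log2 ratio of each gene list, chosen spots against the other spots of the same library, over the list genes with at least 20 UMIs in the library, with fibroblast lists above the dotted line and other cell types below it. Lists with a median in all 4 libraries are drawn, and among these the transporters lie farthest right in each library, at 3.04 to 4.63, and the mitral and tufted cell list lies at -1.69 to -0.99.

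Secreted factors were called gene by gene. In the insulin-like growth factor system, 5 of 10 tested were called: Igf2 with the binding proteins Igfbp4, Igfbp5, Igfbp6 and Igfbp7. Igfbp5 had 700.2, 540.4, 756 and 896 CPM and Igfbp4 269.6, 288, 644 and 427 CPM. The receptor genes were not called, with log2 ratios of -0.07, -0.16, 0.21 and 0.04 for Igf1r and -0.29, 0.68, 0.41 and 0.91 for Igf2r. Of 19 other signals tested 8 were called. Bmp6 had 178, 211, 181 and 134 against 18, 20.4, 21.2 and 22.5 CPM and Bmp7 224, 284, 282 and 184 against 26.2, 26.2, 49 and 41.5 CPM, both bone morphogenetic proteins. Bmp5, Cxcl12, Sfrp1 (a Wnt inhibitor), Tgfb1, Ltbp1 and Ltbp2 were the others. Vegfa, the ligand that soluble VEGFR1 binds, was not called, with 34.8, 41.2, 151 and 169 CPM in the chosen and 54, 54.3, 189.9 and 162 CPM in the other spots. Its levels were higher in libraries 3 and 4 in both kinds of spot, and its log2 ratios were -0.59, -0.32, -0.33 and 0.07. Of 6 complement genes tested 2 were called, among them Cd59a, which blocks the membrane attack complex, with 65.2, 59.5, 99.1 and 71.2 against 14.2, 11.4, 21.7 and 19.9 CPM. C4b had log2 ratios of 2.75, 3.01, 0.82 and 0.91, and C3 had 0, 0, 48 and 40 UMIs in the chosen spots and was not tested.

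The 25 highest ranked genes by their least changed library, led by Osr1, Mgp, Ogn, Thbd, Dcn and Foxc1, held members of most groups above, beside Acta2, Tagln and Myh11 of smooth muscle. Outside the fibroblast and vessel lists they included Gjb2, the gap junction protein connexin 26, with 233, 302, 339 and 202 against 12.1, 14.8, 24.7 and 26 CPM. Itih2, a heavy chain of the inter-alpha-trypsin inhibitor, had 172, 192, 291 and 109.8 against 6.31, 8.79, 20.7 and 14.5 CPM. Mrc2, a receptor that takes up collagen, had 76.1, 96.2, 257 and 151 CPM and Tgfbr3, the coreceptor betaglycan, 65.2, 73.3, 160 and 128 CPM. Anpep, aminopeptidase N, had 26.1, 59.5, 147 and 80.1 against 2.65, 4.79, 12.5 and 10.3 CPM. Mpzl2, Cped1 and Fibin completed them, with log2 ratios of 3.07 to 5.35 for Mpzl2, 3.01 to 4.61 for Cped1 and 2.99 to 3.37 for Fibin over the libraries.

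Some neuronal transcripts were lower in the chosen spots. Of 7 granule cell genes tested 3 were at least 2-fold lower in every library: Pcp4 with 217, 279, 168 and 270 against 844, 919, 858 and 899 CPM, Meis2, and Gad1, which makes GABA, with 622, 705, 204 and 299.7 against 1371, 1428, 735 and 619 CPM. Of 7 mitral and tufted cell genes 2 were, Slc17a7, the vesicular glutamate transporter, with 241, 270.2, 204 and 276 against 941, 836, 772 and 771 CPM, and Cdhr1. Of 7 neuroblast genes Tubb3 was called. None of 7 periglomerular or 8 oligodendrocyte genes was called in either direction, with list medians of -0.73 to -0.22 for the first and -0.86 to -0.51 for the second, both below the median over all genes in each library. Th, which makes dopamine precursors in periglomerular neurons, stood at 404, 398, 74.3 and 77.1 CPM in the chosen spots, against 590.2, 537, 125 and 117 CPM. Among the 10 lowest ranked genes were Grin2a, an NMDA receptor subunit, with 4.35, 9.16, 19.1 and 5.93 against 42.4, 49.3, 80.3 and 82.6 CPM, Nefm, a neurofilament, with 26.1, 32.1, 21 and 17.8 against 120, 121, 77.4 and 83.1 CPM, Rnf112, Miat, Arpp21 and Brinp1. In the chosen spots Cntnap3 rested on 1, 0, 0 and 0 UMIs and Col24a1 on 2, 1, 1 and 0 UMIs, and Kcnk13 had 0 in every library. A level of 3 UMIs there would be 6.52, 13.7, 5.72 and 8.9 CPM and Kcnk13 had only 7.49 to 9.99 CPM in the other spots, so no ratio is given for it.

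Some markers of cells that lie beside meningeal fibroblasts were also higher in the chosen spots than in the other spots. Endothelial genes were called in 8 of 12 tested, with Cldn5, the claudin of the blood-brain barrier, at 285, 256, 219 and 320.4 against 65.8, 54.7, 85.2 and 83.8 CPM and Cdh5 at 45.7, 59.5, 111 and 74.2 CPM. Unchosen spots in the top 5% for the endothelial list, which holds Cldn5, had more of it, at 375, 309, 439 and 401 CPM. Of 9 mural genes tested 7 were called, and Acta2, smooth muscle actin, had 87, 169, 261 and 142 against 7.55, 16.6, 17.9 and 16.1 CPM. Without the spots in the top 5% for the mural list, the least log2 ratio of Acta2 dropped from 3.16 to 0.80 and that of Myh11, smooth muscle myosin, from 2.97 to 0.97. That list holds both genes, so a drop was fixed by the choice of the spots left out. All 4 tested red blood cell genes were called, with Hbb-bs, a beta globin, at 2835, 3077, 3045 and 2809.8 against 365, 220.4, 651 and 616 CPM, nearly level across the chosen spots of the libraries. Unchosen spots in the top 5% for the nasal mucosa list had 1520, 1014, 5427 and 3350 CPM of Hbb-bs, above the chosen spots in libraries 3 and 4. Of 10 border macrophage genes only 3 could be tested. All 3 were called, including Mrc1, the mannose receptor, with 39.1, 36.6, 72.4 and 53.4 against 3.11, 2.8, 8.16 and 8.37 CPM. In library 2 Mrc1 was seen in only 12 of 679 other spots and met the minimum of 20 UMIs through the chosen spots. Microglia had 1 of 7 tested genes called, where the share over all genes tested was 4.94%. P2ry12, a receptor of homeostatic microglia, had 5, 4, 0 and 4 UMIs in the chosen spots, and the microglial list medians were 0.31, 0.33, 0.68 and 0.23. The part of vessels and blood in the other results was not tested beyond leaving out mural or red blood cell spots, given with the alternatives. Endothelial and border macrophage spots were not left out.

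Genes of the olfactory nerve layer and of the nasal mucosa were represented too. Apod, an apolipoprotein of ensheathing glia that fibroblasts also express, had 6367, 6397, 6758 and 6124 against 511, 553, 1302 and 1215 CPM, and Fabp7, a fatty acid carrier of these glia, 2142, 1768, 585 and 944 against 589.6, 494, 278 and 307 CPM. These were the 2 of 7 ensheathing glia genes called. Of 8 genes of sensory axons 3 were called, with Omp, the olfactory marker protein, at 611, 243, 118 and 169 CPM and S100a5 at 3494, 1878, 409.6 and 804 CPM. Both were highest in library 1 and lowest in library 3. Chosen spots that were also in the top 5% of their library by the nasal mucosa list had 1546, 741, 380 and 421 CPM of Omp. The remaining chosen spots had 326, 125, 56.5 and 113 CPM of it. Whether its UMIs came from the nerve layer or the mucosa was not tested. Of the 17 genes of nasal mucosa and glands 4 could be tested and 3 were called, with Bpifb4, a lipid-binding protein of the olfactory mucosa, at 235, 50.4, 937 and 1756 CPM and Cyp2a5, a mucosal detoxifying enzyme, at 1022, 188, 423 and 715 CPM. Astrocytes had 1 of 8 genes called, Gjb6 (connexin 30), with log2 ratios of 2.18, 2.24, 2.69 and 2.13. Reactive glia had 1 of 5, Cp (ceruloplasmin), and the phagocyte list 1 of 7, Lyz2 (lysozyme). Bone and cartilage had 0 of 3 called, and their list medians were -1.18, -1.61, 2.66 and 2.22, with Bglap (osteocalcin) seen in the chosen spots of libraries 3 and 4 only (0, 0, 31 and 46 UMIs). Lymphocyte, choroid plexus and Schwann cell lists each had 1 tested gene (Ighm, Foxj1 and Mbp) and none called. In library 3 the choroid plexus and ependyma list had a median log2 ratio of 3.58 over 5 genes with at least 20 UMIs, above the 3.42 of the transporters there. The T cell gene Cd4, the B cell gene Ms4a1 and the choroid plexus gene Folr1 had no UMI in any chosen spot, and Ttr, the choroid plexus transthyretin, had 0, 1, 18 and 8.

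The lists also overlapped spot by spot. For each list the top 5% of spots were taken by the same rule, and the share of the chosen spots among them was read against the 5% taken. Transporter-rich spots took in 66.3, 69.4, 50.8 and 46.8% of the chosen spots in libraries 1 to 4. Endothelial spots took in 36.1, 41.7, 43.1 and 31.9%, mural spots 26.5, 36.1, 46.2 and 44.7%, red blood cell spots 22.9, 33.3, 26.2 and 29.8% and border macrophage spots 32.5, 47.2, 38.5 and 21.3%. Ensheathing glia spots took in 54.2, 55.6, 30.8 and 29.8%, with more in libraries 1 and 2, and nasal mucosa spots 24.1, 16.7, 23.1 and 17%. No chosen spot was in the top 5% for granule cells, where 0 of 83, 36, 65 and 47 spots allow shares of up to 4.35, 9.74, 5.52 and 7.55% (exact binomial bound). Reactive glia spots took in 38.6, 58.3, 0 and 0% and phagocyte spots 41, 52.8, 3.08 and 17%. In libraries 3 and 4 the other spots held 2094 and 1718 CPM of the summed reactive glia genes, against 197 and 177 CPM in libraries 1 and 2.

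**Figure D4:**
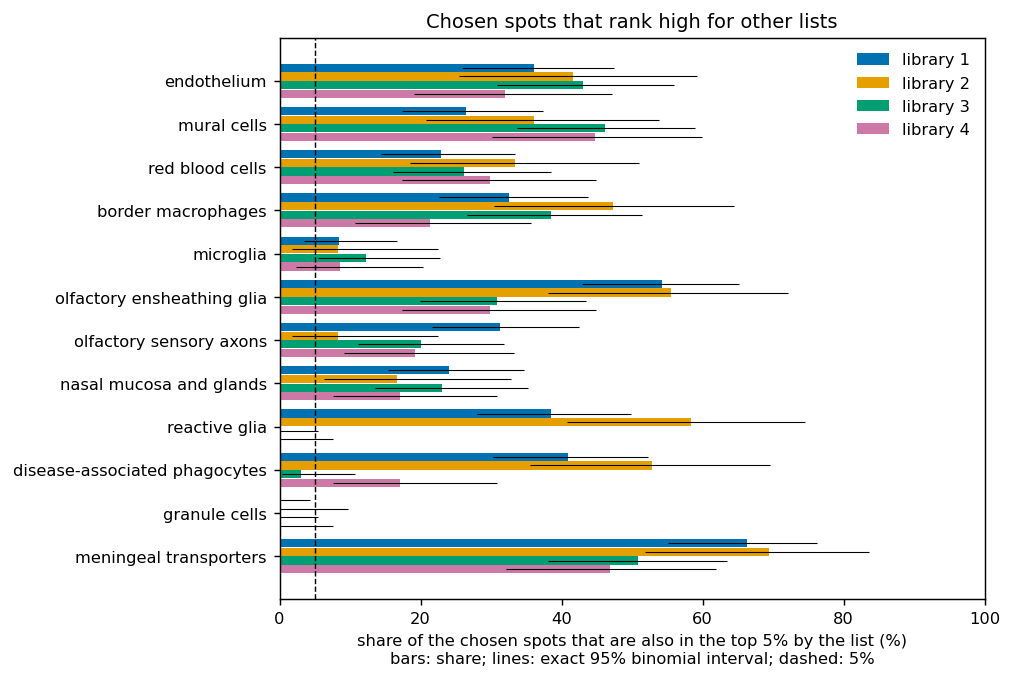
Share of the chosen spots (%) that were also in the top 5% of their library by each other list, 1 bar per library, with exact 95% binomial intervals (counting error only) and a dashed line at 5%. The transporter bars are the longest in every library, at 66.3, 69.4, 50.8 and 46.8%, while the granule cell bars are at 0 in all 4.

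A few chosen spots were in none of the top sets for endothelium, mural cells, red blood cells, border macrophages, nasal mucosa or ensheathing glia: 13, 2, 10 and 8 spots in libraries 1 to 4. There Ptgds had 49446, 56046, 60860.2 and 51188 CPM, Slc6a13 309, 662, 388 and 252 CPM and Slc13a4 482, 331, 296 and 302 CPM, the last from 39, 3, 29 and 18 UMIs. Ptgds was above the level of all chosen spots in libraries 1, 2 and 4 and near it in library 3. Other fibroblast genes differed. Dcn, Col1a2, Ogn and Lum were lower in these spots than in all chosen spots of each library. Dcn had 272, 552, 603 and 822 CPM in them. Lum had 24.7, 0, 102 and 50.3 CPM, from 2, 0, 10 and 3 UMIs. Fmod was higher in each library, and Igf2 and Foxc1 were higher in some libraries and lower in others. Acta2 had only 6, 0, 4 and 3 UMIs in these spots. In spots of the top 5% by another list that were not chosen, the transporters were lower: Slc6a13 had 37.2, 54.1, 187 and 153 CPM in endothelial spots, 53.1, 48.5, 199.9 and 143 in mural spots and 68.5, 62.9, 157 and 71.2 in ensheathing glia spots, against 383, 504, 373 and 288 in the chosen ones. These sets leave out high scorers by construction, so no test is given.

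In library 3 the chosen spots that also ranked in the top 5% for nasal mucosa went against the label. These 15 of 65 spots had 8517 CPM of Ptgds, against 73408 CPM in the other 50 chosen spots. The transporters were low in them as well, with 60 against 447 CPM of Slc6a13, 30 against 631 CPM of Slc6a20a and no UMI of Slc22a8 against 308 CPM. Matrix genes were split. Higher were Lum, Col1a1 and Mgp, with 729.8 against 106 CPM of Lum, 1099.7 against 287 CPM of Col1a1 and 5148 against 2899.9 CPM of Mgp. Lower were Fn1, with 409.9 against 1375 CPM, Ogn, with 259.9 against 426 CPM, Fmod, with 159.9 against 351 CPM, and Ccn3, with 259.9 against 515 CPM. These spots are named here only by their rule, as spots high in Mgp, Lum and collagen I. Scgb1c1, a secretoglobin, had 15915 CPM in them and Spp1, osteopontin, 1699 CPM. In library 1 the 20 such spots had 44343 against 45826 CPM of Ptgds and 428 against 369 CPM of Slc6a13, but lower Slc6a20a, with 168 against 329 CPM, and Slc22a8, with 121 against 233 CPM. In library 2 the 6 such spots had 57425 against 49022 CPM of Ptgds. In library 4 the 8 such spots had 25486 against 38697 CPM of Ptgds and 32.4 against 203 CPM of Slc13a4, the last from 2 against 56 UMIs. Slc6a13 had 178 against 312 CPM in them, Slc6a20a 194 against 298, Slc22a8 81 against 160 and Slc22a6 146 against 145 CPM.

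Levels in the chosen spots differed between libraries for some genes more than for others. Among genes with at least 100 UMIs over the chosen spots and 3 in each library, 19.9% (584 of 2936, by coincidence the number of genes called higher) had a highest library more than 2-fold above the lowest, and in the other spots of the same libraries 9.4% of the same genes did. Fewer UMIs in the chosen spots give these ratios more counting error. Of 7 collagens of fibrils and networks that met the UMI minimum 7 were past 2-fold. Of 8 genes of the transporter list 5 met the minimum and 0 of these were past 2-fold, a count near the background for so few genes. Slc6a12, Slc22a2 and Slc47a1 fell short of it and were not counted, though Slc6a12 was past 2-fold by its levels given above. The rule gene Slc13a4, also a transporter, was past 2-fold at 2.32 (1.64 to 3.29). Fn1 had a highest to lowest ratio of 4.76 (3.9 to 5.86), Col1a1 5.02 (3.58 to 7.18), Spp1 9.89 (7.12 to 14.1) and Lyz2 14.2 (10.8 to 19). For Spp1 the levels were 84.8, 101, 838 and 676 CPM, high in libraries 3 and 4. Slc22a6 had 1.21 (0.843 to 1.74) and Slc6a13 1.75 (1.32 to 2.32). Some of these ratios moved with the score threshold. Over 19 alternatives the log2 span across libraries (highest over lowest) ranged from 1.21 to 2.85 for Fn1, from 2.08 to 3.25 for Mgp, from 2.03 to 2.98 for Col1a1 and from 2.03 to 3.59 for Spp1, and 1 score threshold for all libraries gave the lowest values of Fn1 and Mgp. That threshold also gave the highest values of Slc13a4, 1.87, and Slc6a13, 1.29, both past 2-fold.

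Genes of the nasal mucosa were among those with the widest ratios. Bpifb4 had 34.9 (19.3 to 70.2), Gpx6 (a glutathione peroxidase) 29.2 (14.6 to 68.1) and Bpifb6 25.2 (13.1 to 55.6), all highest in library 4 and lowest in library 2. Prg4, the lubricant proteoglycan 4, stood apart in library 3, with 6, 4, 119 and 5 UMIs and 13, 18.3, 227 and 14.8 CPM, and so did Igkc, an immunoglobulin chain, with 12, 5, 85 and 6 UMIs. Among genes raised in libraries 3 and 4, A2m, an acute phase protease inhibitor, had 13, 13.7, 118 and 145 CPM and Wfdc17 13, 13.7, 114 and 119 CPM. Both A2m and Lyz2 differed in the same direction outside the chosen spots: A2m had 5.29, 4.2, 92.6 and 66.3 CPM there and Lyz2 22.8, 21.2, 455 and 394 CPM. Lcn2, lipocalin 2, picked after its values were seen, had 4.35, 4.58, 419 and 350.1 CPM in chosen and 0.389, 0.599, 514 and 372 CPM in other spots. Which mouse each library came from is not known, so no difference between libraries stands for the transgene.

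**Figure D5:**
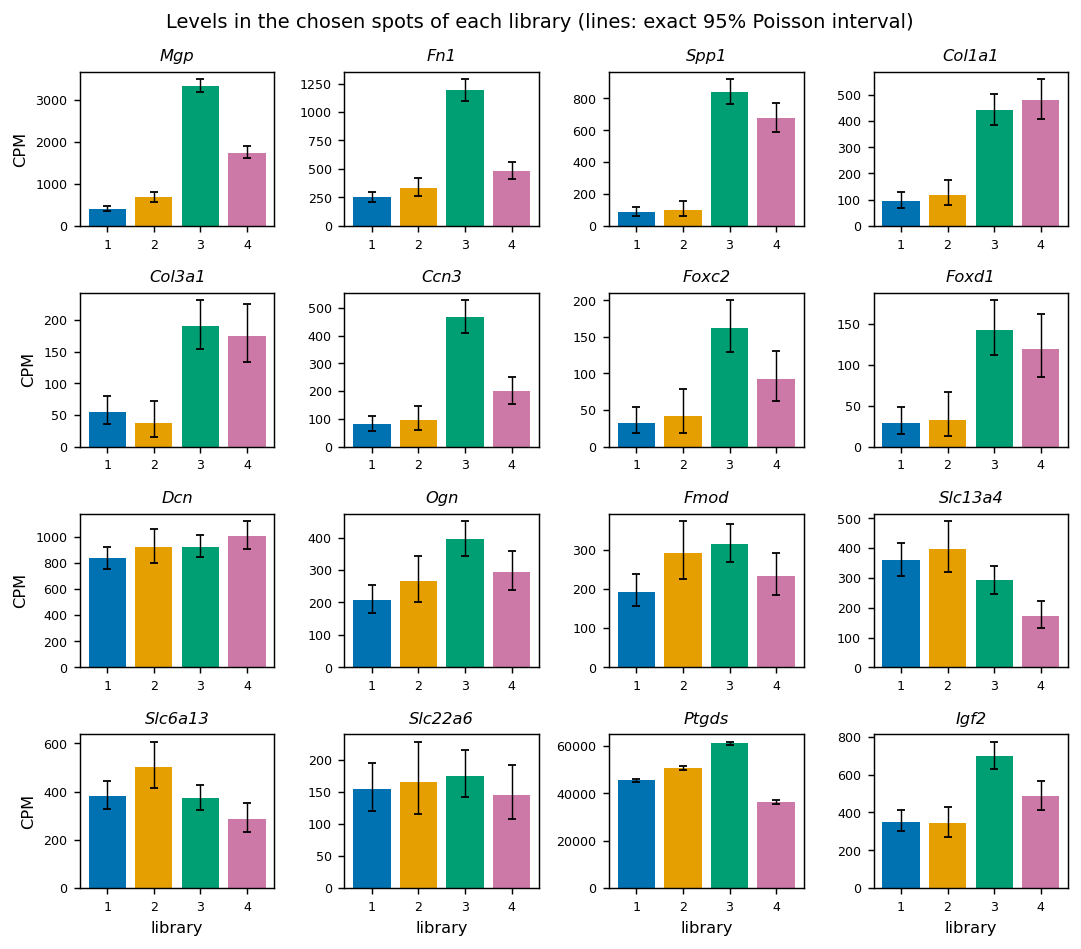
CPM of 16 genes in the chosen spots of each library, with exact 95% Poisson intervals that cover counting error only. Mgp, Fn1 and Ccn3 are highest in library 3, Spp1, Col1a1, Col3a1, Foxc2 and Foxd1 are higher in libraries 3 and 4, and the bars of Dcn and Slc22a6 differ least in height among libraries.

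For some genes the ratio of chosen to other spots itself changed between libraries. The rule for such genes (the widest span of the log2 ratio among genes past 2-fold in at least 1 library) returned Sowaha, R74862, Bivm, Asic4, Helq, Ptcd1, Clgn, Sdk2, Triqk and Cmtr2, all with 0 UMIs in the chosen spots of at least 1 library, where the ratio depends on the prior count. Among genes with at least 100 chosen UMIs, a limit set after their values were seen, Serpina3n, a protease inhibitor of reactive astrocytes, had log2 ratios of 3.12, 2.96, 0.26 and 0.86. H2-Ab1, a class II histocompatibility chain, had 3.44, 4.60, 1.43 and 1.85, and S1pr3, a sphingosine 1-phosphate receptor, 3.25, 3.48, 0.55 and 1.61. In each the other spots of libraries 3 and 4 held more of the transcript: Serpina3n had 23, 24.4, 559.7 and 436 CPM there in libraries 1 to 4, and 200, 188, 669 and 792 CPM in the chosen spots. Smoc2 and Ranbp3l had the highest ratio in library 1, with 4.93, 4.09, 2.71 and 1.99 for Smoc2 and 4.92, 3.72, 3.21 and 1.98 for Ranbp3l. Sult1c1, a sulfotransferase, did not follow this order, with 2.45, 0.17, 3.51 and 2.33.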

How the data were processed

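Visium libraries of olfactory bulb sections of 1 control and 1 mutant mouse were used. The deposited matrix holds whole-number UMI counts per gene and spot, pooled over capture areas; per the file headers the authors used Space Ranger 1.3.1. The submitters' processing notes name GRCm39, but the 32285 features equal the vendor's mm10 reference in number, so the build is uncertain and no coordinates of the files are given. The sources used here name no read filter or annotation. Of the gene IDs, 32158 were found in the name table. Promoter sequences are RefSeq's on GRCm38.p6.

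Spots of at least 500 UMIs were kept (4616 of 4713, 40624119 UMIs in all) and assigned to libraries by barcode number. The 6-gene score, the top 5% per library and ties by file order follow the rule in the opening. UMIs were summed over chosen and over other spots per library. Ratios have exact conditional binomial intervals, levels exact Poisson and shares exact (Clopper-Pearson) intervals, all 95% and for counting error only. Fold and log2 ratios of chosen to other spots carry a prior count of 0.5, and their intervals do not. No test was run, since libraries match no label and spots are not replicates. Named genes were the 6 rule genes, the members of 37 lists (353 genes, 352 with an unambiguous row, Ccl19 being left out because its symbol occurs more than once), the 25 highest and 10 lowest genes by their least changed library, and the 10 with the widest span, leaving out mitochondrial, ribosomal protein and unnamed gene models. Genes named for levels across libraries, and those of at least 100 chosen UMIs with a wide span, were picked after their values were seen. The members and lists were chosen with earlier results of these data known. No per-sample column was left unused. Some list members are not reported here. Doublet calls do not apply to spots, and no positions or images were used. The scripts were tested on simulated data and used Python 3.11.15, numpy 2.4.6, scipy 1.17.1, pandas 2.3.3 and matplotlib 3.10.9.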

Additional observations from a re-analysis of the deposited data

Results flagged for a closer look

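A few UMIs of the rule genes appeared in spots that no comparison used. In library 4, the 4 spots under 500 UMIs held 4 UMIs of the 6 rule genes among 1308 UMIs, or 3058 CPM (833 to 7830, exact Poisson interval), above the 2294 CPM that 3 UMIs would give there. The kept spots of library 4 had 510 CPM. The set-aside spots of libraries 2 and 3 had 0 such UMIs and those of library 1 had 2. No explanation was tested.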

How the results depend on the processing

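Over 19 other ways of choosing, weighting or leaving out spots, 1035 of 1045 log2 values for 55 named genes and list sums kept their sign. Many of these genes were ranked by their ratio in the same spots, so a kept sign was largely fixed by how they were picked. Sizes moved more. The summed meningeal fibroblast list of library 3 left its main counting interval in 18 of 19 alternatives, Ptgds in 16 of 19 and Aldh1a2 in 0 of 19. The summed transporter ratio had log2 ranges of 3.67 to 4.30, 3.73 to 4.28, 2.90 to 3.92 and 2.69 to 3.70 for libraries 1, 2, 3 and 4. The 584 genes called higher became 178 with spots thinned to 2000 UMIs, where shallower spots were left out. They became 1009 at 1.5-fold and 261 at 3-fold, and leaving out a library gave 579 to 715. With spots chosen by transporters alone 378 of the 584 remained. The 281 genes called lower became 127 with the top 10% of spots, 159 without Dcn in the score, 102 with Slc13a4 and Ogn alone, 166 with transporters alone, 160 thinned, 930 at 1.5-fold, 10 at 3-fold and 319 to 495 without a library, the most without library 2. The 584 genes past 2-fold between libraries became 189 with the top 2% and 1132 with the top 10% of spots, 123 thinned, 1596 at 1.5-fold, 144 at 3-fold and 175 to 331 without a library, the fewest without library 3. Fewer UMIs or libraries leave fewer genes to compare, and for the other changes the cause was not tested. Col24a1 changed sign to 0.24 with Slc13a4 and Ogn alone and 0.33 with transporters alone, and Kcnk13 to 0.14 with transporters alone, all on the log2 scale. The other sign changes were those of the astrocyte gene Gfap, at -0.55 to 0.36 over the alternatives. Some settings were added after seeing the data: without ensheathing glia spots the genes called lower were 164 and those differing between libraries 358, leaving out mural or red blood cell spots moved no count past 1.5 times, and every alternative for the genes differing between libraries was of this kind. No paired analysis was possible because the libraries carry no group or replicate label. Library 2, with 36 chosen spots, set the weakest precision, where 3 UMIs are 13.7 CPM.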
